A study of Rattus norvegicus with 78 samples.

Results

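Hippocampal expression in cognitively impaired old rats was compared between the last day of maze training and 21 days after it, in 19 of the 78 arrays of the study. The members were taken by their labelled group alone, 9 arrays of 21PT-AI and 10 arrays of 5T-AI, with 1 array per animal and no animal sampled at both times. All rats of both groups were aged male F344 of 24 to 26 months, housed in pairs, trained to find a hidden platform in the Morris water maze, and classed by the authors as impaired (AI) for their performance there. Day 5, when training ended, gave the 5T-AI samples, and the 21PT-AI rats were sampled 21 days after training. For comparison the same interval was measured in aged unimpaired rats (21PT-AU, n = 10, and 5T-AU, n = 10) and in young rats of 4 to 6 months (21PT-Y, n = 9, and 5T-Y, n = 10), and untrained aged rats (NT-A, n = 10) gave the level without training; untrained young rats (NT-Y, n = 10) entered only the fit. RNA came from dorsal tissue of the left hippocampus, and each array was an Affymetrix RAE230A GeneChip. Values are signal in intensity units, and differences are on the scale of log2(signal + 1), 21 days after training minus day 5, which understates the difference of dim probe sets.

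The hippocampus is needed to learn and recall places. Swimming a maze activates its neurons, and within minutes to hours such activity switches on immediate early genes, among them the transcription factors Fos, Egr1 and Nr4a1 and the synaptic regulator Arc, whose RNA then decays quickly. Training is also a stressor and a time cue, so that genes answering to glucocorticoids and the genes of the circadian clock can move with it. The question of the comparison is which genes differ between the end of training and weeks after the last swim in rats that learned the task poorly. A change that training left alike at both times does not appear in it.

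Marker genes of the tissue were measured as follows. Prox1 and Calb1, which mark granule cells of the dentate gyrus, had median signals of 1326 and 1018 over the 19 arrays, and Wfs1, which marks pyramidal cells of area CA1, one of 3951. The myelin gene Mbp (median 12232) and the astrocyte gene Gfap (median 6813) were measured in every array. Of 3 genes of the choroid plexus, Kl had a median of 8.7 and was too dim to be tested, while Ttr and Folr1 had medians of 204.4 and 217.0. In whole tissue fewer cells of a type and less RNA per cell cannot be told apart.

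One of the 10 arrays of day 5, 5T-AI replicate 4, stood apart from the other 18. Its mean correlation with the other arrays of the study was 0.937 against a median of 0.968, and it held the highest or the lowest value of the 19 arrays for 40.4% of the tested probe sets, against a median of 8.48% over the other 18. Genes of phagocytic cells were far higher in it. Spp1 (osteopontin, a secreted protein of activated phagocytes) stood at 5456 against 92.8 to 166.1 in the other 18 arrays. Gpnmb, a membrane protein of lipid-laden macrophages, stood at 7261 against 334.2 to 987.3, and Lgals3 (galectin 3) at 3764 against 102.7 to 300.7. Tyrobp, the signalling adaptor of microglial receptors, stood at 1706 against 200.6 to 274.1. The 22 tested microglia and macrophage markers summed to 59203 in this array and to between 12928 and 16372.5 in the others, and 21 of the 22 were highest there. The complement list (7 genes) summed to 17860 against 3771 to 5042, and the lysosome list (33 genes) to 106094 against 55140 to 64650. The 21 genes of collagen, matrix and meninges summed to 34258 against 10851.5 to 13864 (19 highest). The 26 myelin genes summed to 83102 against 62146 to 80973 (14 highest). The 34 genes of synaptic vesicles and their fusion machinery summed to 59258 against 77322 to 87340, with 24 of them lowest in this array. The 28 potassium channels summed to 12316 against 16991 to 19999, with 19 of them lowest. Over all tested probe sets 19.4% were highest and 21.1% lowest in this array. The animal had the longest mean distance to the goal of its group in the probe trial (60.44 cm) and the smallest share of time in the goal quadrant (7.7%). Its probe trial path was also the shortest (573.2 cm). Its other measures lay inside the range of its group. Among them were training latency (55.35 s, group median 49.7 s) and dwell in the annulus around the goal (1.65 s, equal to the group median). Values without this array stand beside the results it moves most.

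**Figure D1:**
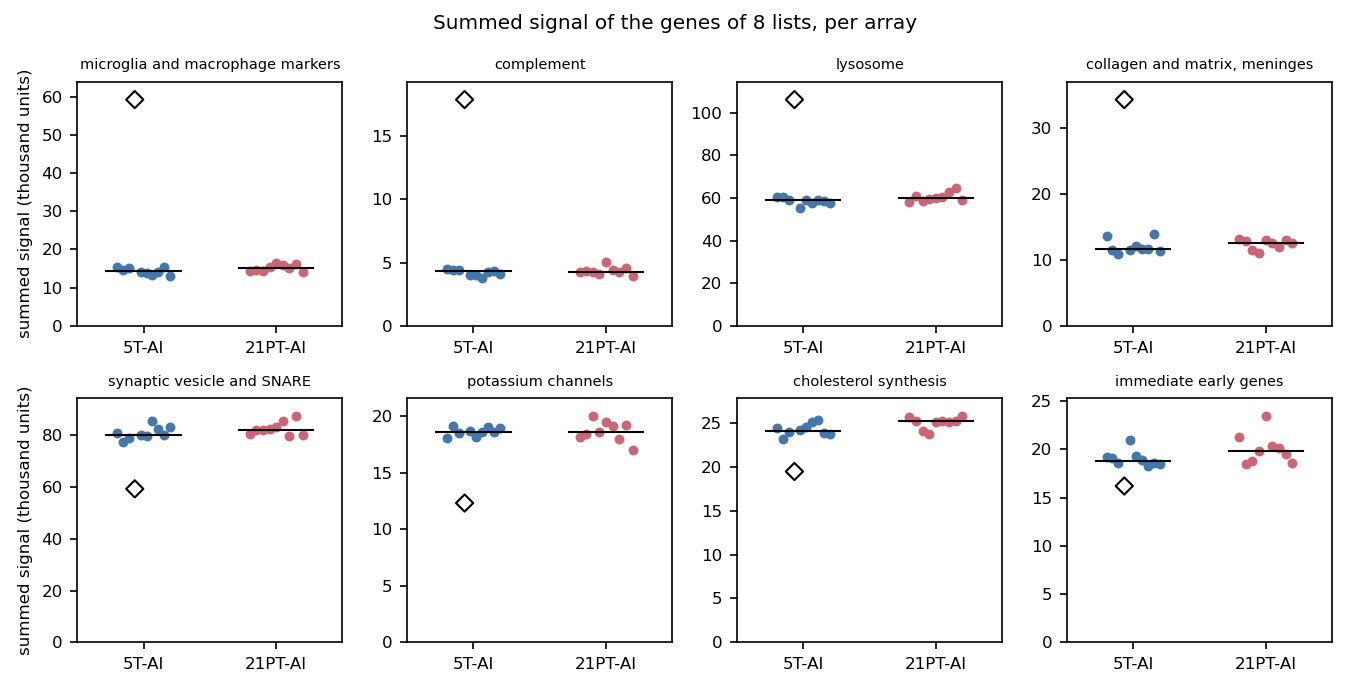
Summed signal of the tested genes of 8 lists in each array, in intensity units with axes scaled by 1000, for 5T-AI (blue, n = 10) and 21PT-AI (red, n = 9), with lines at the group medians and axes from 0. The open diamond is 5T-AI replicate 4, which lies far above the other 18 arrays for microglia and macrophage markers (59203 against at most 16372.5) and below them for the genes of synaptic vesicles (59258 against at least 77322).

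Of 10371 tested probe sets 1 passed between the 2 times in impaired rats, Adcy8, which rose (limma, Benjamini-Hochberg adjusted p = 0.0355); this is 0.00964% of the tested probe sets. At an unadjusted p under 0.05 stood 507 (4.89%), 237 of them higher (2.29%) and 270 lower (2.6%) 21 days after training. No probe set separated the 2 groups of arrays without overlap, with replicate 4 or without it. The spread leaves limited room for large differences. The median standard error was 0.08 on the log2 scale, and for 9775 probe sets (94.3%) the 95% confidence interval of the difference lay within 0.5 of 0 on the log2 scale. A difference beyond 0.5 in either direction was measured for 26 probe sets, 25 of which had a mean signal below the median of the tested probe sets. The exception was Arc. In unimpaired rats 0 probe sets passed over the same interval (limma), with 489 at an unadjusted p under 0.05 (4.72%), and in young rats 10 passed (0.0964%), with 764 at an unadjusted p under 0.05 (7.37%).

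**Figure D2:**
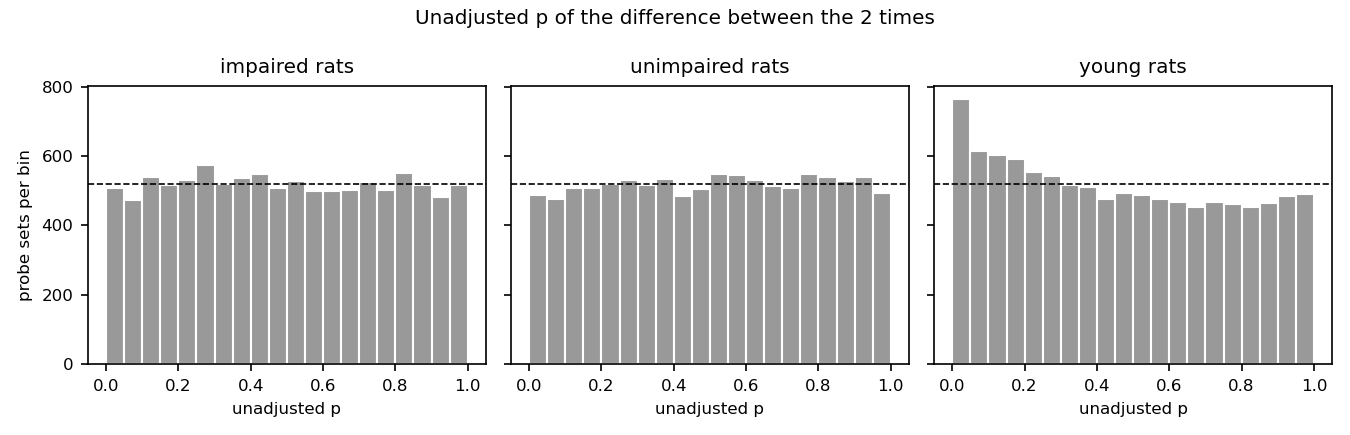
Number of tested probe sets in each of 20 bins of the unadjusted p of the difference between 21 days after training and day 5, in impaired, unimpaired and young rats, with the dashed line at the mean of the bins. The lowest bin holds 507 probe sets in impaired, 489 in unimpaired and 764 in young rats.

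Adcy8 encodes an adenylyl cyclase that calcium and calmodulin stimulate and that makes cyclic AMP in neurons. On day 5 its signal ran from 40.4 over a median of 93.6 to 135.2, and 21 days after training from 105.8 over 144.2 to 202.9. All 9 later arrays lay above the median of day 5 and 6 of them above its highest array, so that the groups overlapped only at their edges. The difference was 0.64 ± 0.13 (SE) on the log2 scale, with a 95% interval from 0.39 to 0.90 (fitted ratio 1.56). Between arrays scanned on the same day it was positive on 8 of 8 days (0.588% of all tested probe sets), and it was 0.40, 0.97 and 0.64 in the 3 chip lots. Without replicate 4, the lowest array, it was 0.52 (adjusted p = 0.0807), and the call was lost in 11 of 19 fits that left out 1 array each. It was also lost with scan day as a block (adjusted p = 0.0714), with array weights (0.0674), with quantile normalization (0.160) and with only the 19 arrays in the fit (1.00). Untrained aged rats had a median signal of 142.6, near that of the later group. Against them 5T-AI was lower by a passing difference of -0.59 ± 0.13 (limma, adjusted p = 0.0150). That of 21PT-AI was 0.06 ± 0.13 (limma, adjusted p = 0.978), and both share arrays with the comparison above. The 5T-AI value includes replicate 4 (signal 40.4, the next array at 75.0). It was not read without that array or under the alternatives, so that how far it rests on replicate 4 is not known. The same interval gave 0.28 ± 0.13 in unimpaired and 0.49 ± 0.13 in young rats, and neither differed from the impaired value after adjustment (limma, adjusted p = 0.999 and 0.984). Adcy8 is among the 25 dim probe sets above. Its mean log2 signal was 7.02, below the median 40th percentile of the arrays (7.34), the level used by the filter. The only passing call therefore came from a probe set whose mean lay below that level. Fluidics module was nearly tied to the groups (7 of 10 arrays of 5T-AI in module 1, 7 of 9 of 21PT-AI in module 2, and 1 array of 21PT-AI in module 1); with module as a term the difference was 0.46 and did not pass (adjusted p = 1.00).

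None of the other 9 of the 10 genes with the smallest p passed, and their values follow by role. Gramd2b encodes a protein with a lipid-binding GRAM domain. Its signal ran from 1037 over 1155 to 1572 on day 5 and from 939.5 over 1033 to 1100 later, with all 10 day 5 arrays above the later median and all 9 later arrays below the day 5 median. The difference was -0.20 ± 0.04 (limma, adjusted p = 0.0618), negative on 8 of 8 shared scan days (0.434% of all probe sets), and -0.16 without replicate 4, which had the highest signal. It was -0.13 ± 0.04 in unimpaired and -0.07 ± 0.04 in young rats.

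**Figure D3:**
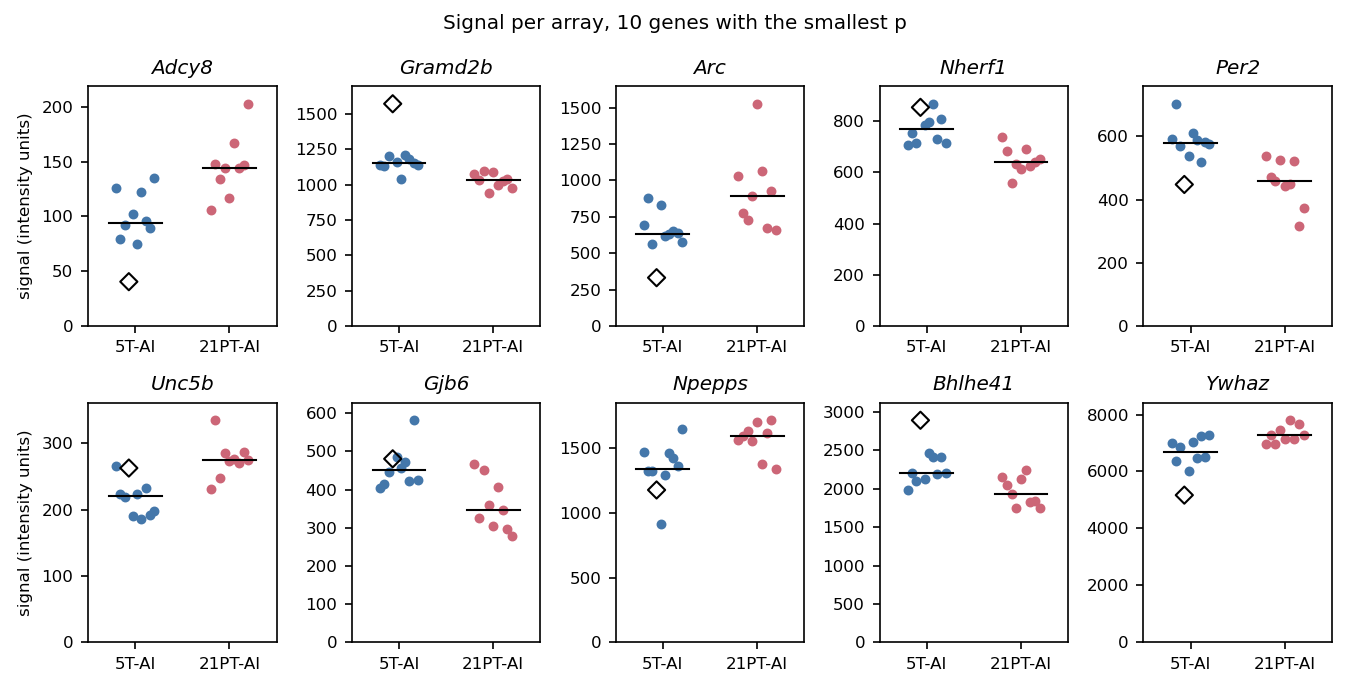
Signal of each array in intensity units, with axes from 0, for the 10 genes with the smallest p, in 5T-AI (blue, n = 10) and 21PT-AI (red, n = 9), with lines at the medians and 5T-AI replicate 4 as an open diamond. The groups overlap in every panel, and for Adcy8, Gramd2b, Arc, Bhlhe41 and Ywhaz replicate 4 is the most distant day 5 array, on the side away from the later group.

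Among immediate early genes Arc, whose protein controls the removal of glutamate receptors from synapses, had the smallest p. Its signal was between 331.3 and 878.9 on day 5, with a median of 633, and between 657.6 and 1526 later, with a median of 891. All 9 later arrays lay above the day 5 median and 5 above its highest array. The difference was 0.51 ± 0.12 (SE; limma, unadjusted p = 6.21e-05, adjusted p = 0.171), and 0.41 without replicate 4 (adjusted p = 0.397). It was positive on 7 of 8 shared scan days, and by chip lot 0.26, 1.01 and 0.26.

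Fos, a subunit of the AP-1 transcription factor, ran from 41.9 over 70.2 to 250.7 on day 5 and from 84.4 over 131.1 to 346.0 later. Replicate 4 had the highest day 5 signal, and the next was 107.3. Fos was a dim probe set. Its mean log2 signal was 7.08, below the median 40th percentile of the arrays (7.34), the level used by the filter. The difference was 0.90 ± 0.27 (adjusted p = 0.634) and 1.09 without replicate 4 (adjusted p = 0.192), with 8 of 8 shared scan days positive. Nr4a1, an orphan nuclear receptor induced by activity, ran from 408.9 over 612 to 798.4 and later from 639.2 over 723.1 to 1005, a difference of 0.31 ± 0.09 (adjusted p = 0.586). Egr1, a zinc finger transcription factor, differed by 0.13 ± 0.08 and Junb, another AP-1 subunit, by 0.16 ± 0.11, with medians of 1907 and 2030 for Egr1 and 271.3 and 298.4 for Junb. Neither passed (limma, adjusted p = 0.981 for both). Leaving out 1 array in turn gave 0.07 to 0.18 for Egr1 and 0.09 to 0.22 for Junb. Replicate 4 had the lowest Egr1 signal of the 19 arrays (1523, the next at 1621). Bdnf, a secreted neurotrophin, differed by -0.02 ± 0.17 and, without replicate 4, which had a signal of 99.0 against 239.4 or more in the rest of its group, by -0.21.

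Of 26 tested immediate early genes 23 had a positive and 3 a negative difference, with a median of 0.11. Over all tested probe sets 50.6% were positive (median 0.00), and over all genes by their brightest probe set 47.7%. The genes were read in the same arrays and are not replicates. The list's mean had an SD between arrays of 0.12. Its summed signals overlapped, at 16205 to 20972 on day 5 and 18522 to 23446 later. None of the 26 genes passed. At an unadjusted p under 0.05, 3 were higher (Arc, Nr4a1 and the dim Fos), as were 2.29% of all probe sets. Without replicate 4 the count was 22 of 26, against 49.7% of all probe sets, and the median 0.10. Over the same interval 8 of the 26 were positive in unimpaired rats (median -0.06, against 49.9% of all probe sets) and 14 of 26 in young rats (median 0.02, against 50.6%), from arrays that are not shared with the impaired comparison. Nr4a3, a relative of Nr4a1, is counted there by its brighter probe set (0.11 ± 0.10). In that probe set replicate 4 stood at 565.2 against 936.7 to 1443 in the other 18 arrays. The dimmer probe set of Nr4a3 gave 0.61 ± 0.20 (limma, adjusted p = 0.705). Homer1 is also counted by its brightest probe set. Another of its probe sets went the other way, at -0.26 ± 0.12 (limma, adjusted p = 0.981) and -0.33 without replicate 4.

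Part of the promoter of Nr4a1 is shown because calcium and cyclic AMP, the product of Adcy8, act on such genes through cyclic AMP response elements. The sequence is the 250 bases before the start of the gene in RefSeq (GRCr8, chr7:134259888-134260137, plus strand), and capitals mark TGACG or its reverse complement CGTCA, the half-site of that element.
Nr4a1: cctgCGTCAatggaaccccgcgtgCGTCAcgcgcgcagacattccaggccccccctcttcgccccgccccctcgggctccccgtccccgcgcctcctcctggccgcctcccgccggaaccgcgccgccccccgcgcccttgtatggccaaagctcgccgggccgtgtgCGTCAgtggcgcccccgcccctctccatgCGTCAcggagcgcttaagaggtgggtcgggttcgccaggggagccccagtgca
The half-site occurred 4 times in this window, the nearest starting 53 bases before the start and the farthest 246. On either strand 18.96% of the 27457 promoters of the table held it in the same window.

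The test of whether the change differed between impaired and unimpaired rats called 0 of 10371 probe sets (limma, smallest adjusted p = 0.999), with 347 at an unadjusted p under 0.05 (3.35%). Arc had the smallest p, with 0.51 in impaired against -0.16 ± 0.12 in unimpaired rats, a difference of 0.67 ± 0.17 (unadjusted p = 0.000165, adjusted p = 0.999). In unimpaired rats the median signal of Arc was 830 on day 5 and 804 later, and in untrained aged rats 802, so that the 5T-AI median of 633 was the lowest of these 5 aged groups. Nr4a1 differed in the same way, by 0.43 ± 0.13 (limma, unadjusted p = 0.000947), with -0.12 ± 0.09 in unimpaired rats. Replicate 4 was the lowest day 5 array of 5T-AI for both genes (331.3 for Arc and 408.9 for Nr4a1). Without it the impaired value of Arc was 0.41. That of Nr4a1 was as low as 0.25 when 1 array was left out. The differences from unimpaired rats of both genes include replicate 4 and were not read without it. The other 3 of the 5 genes with the smallest p were Slco2b1, Abhd13 and Paxbp1. Slco2b1, an organic anion transporter, gave -0.49 ± 0.14 in impaired and 0.23 ± 0.14 in unimpaired rats, but a second probe set gave -0.12 ± 0.11 and 0.01 ± 0.11. In that second probe set replicate 4 stood at 998.0 against 292.4 to 468.8 in the rest of its group, and without it the impaired value was 0.02. Abhd13, a predicted hydrolase, gave 0.24 ± 0.09 and -0.20 ± 0.09. Paxbp1, a nuclear partner of PAX transcription factors, gave 0.07 ± 0.07 and -0.27 ± 0.07, with 0.00 ± 0.09 and -0.09 ± 0.09 from its second probe set.

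**Figure D4:**
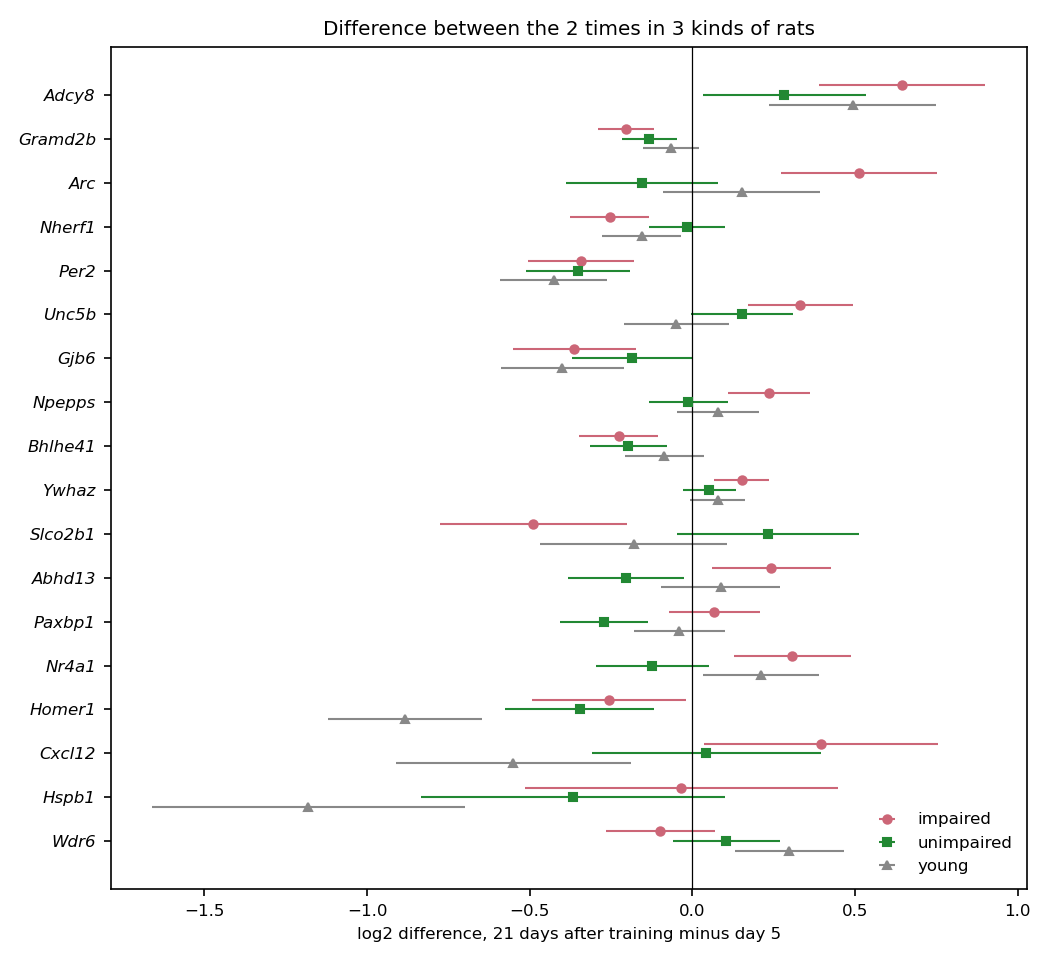
Log2 difference between 21 days after training and day 5, with its 95% confidence interval from the fit, in impaired (circles), unimpaired (squares) and young rats (triangles), for the genes with the smallest p in the impaired comparison and in its 2 contrasts with the other rats. Per2 lies between -0.34 and -0.43 in the 3 kinds of rats, while Arc is at 0.51 in impaired and at -0.16 in unimpaired rats.

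The 10 genes also held 2 clock genes, Per2 and Bhlhe41, neither of which passed. Per2, a repressor that closes the feedback loop of the circadian clock, ran from 448.0 over 579 to 703.6 on day 5 and from 315.5 over 458.6 to 538.8 later, with all 9 later arrays below the day 5 median. The difference was -0.34 ± 0.08 (limma, adjusted p = 0.171) and -0.38 without replicate 4 (adjusted p = 0.0807), and it was negative on 8 of 8 shared scan days. In the single fluidics module that held both groups, with 1 later array, it was -0.12. Per2 was at -0.35 ± 0.08 in unimpaired rats (adjusted p = 0.182) and fell in young rats, by 0.43 on the log2 scale (-0.43 ± 0.08, adjusted p = 0.00347). Against untrained aged rats it was higher on day 5 (0.37 ± 0.08, adjusted p = 0.0182) and at 0.03 ± 0.08 later.

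Bhlhe41, which represses the clock activators at E-boxes, ran from 1982 over 2205 to 2891 on day 5 and from 1745 over 1935 to 2241 later. Its difference was -0.23 ± 0.06 (adjusted p = 0.467), -0.20 ± 0.06 in unimpaired and -0.09 ± 0.06 in young rats. Dbp, a clock output transcription factor, gave -0.21 ± 0.09 and -0.26 without replicate 4. Of 13 tested clock genes 6 were positive and 7 negative (median -0.02), none passed, and 3 (Per2, Bhlhe41 and Dbp) were lower at an unadjusted p under 0.05, as were 2.6% of all probe sets. Bmal1, an activator of the clock, stood at 0.16 and Nr1d1, which represses it, at 0.10.

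The promoters of Bhlhe41 and Per2 are shown because clock activators bind the E-box CACGTG; 250 bases before each start in RefSeq are given (GRCr8; Bhlhe41 at chr4:180569356-180569605 and Per2 at chr9:99496994-99497243, both on the minus strand), with the E-box in capitals.
Bhlhe41: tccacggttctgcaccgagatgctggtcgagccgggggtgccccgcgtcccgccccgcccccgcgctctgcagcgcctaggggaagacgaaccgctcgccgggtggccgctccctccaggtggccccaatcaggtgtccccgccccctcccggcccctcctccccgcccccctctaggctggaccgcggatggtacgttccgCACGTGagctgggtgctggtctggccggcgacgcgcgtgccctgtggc
Per2: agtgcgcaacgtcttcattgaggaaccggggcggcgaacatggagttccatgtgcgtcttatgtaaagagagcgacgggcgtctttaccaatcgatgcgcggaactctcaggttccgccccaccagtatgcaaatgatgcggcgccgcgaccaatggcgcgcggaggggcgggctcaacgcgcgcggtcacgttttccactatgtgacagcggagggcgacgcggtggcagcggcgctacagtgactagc
Bhlhe41 held 1 E-box, starting 48 bases before the start, and no copy of these letters lay in the Per2 window. Only CACGTG was searched, so that variant letters, such as the CACGTT in the Per2 window, were not counted. The absence of CACGTG there does not show that clock activators have no site in it. The share of the 27457 promoters with CACGTG in this window was 5.79%. Of the 10 genes with the smallest p 6 were in the promoter table, and Adcy8, Gramd2b, Arc and Ywhaz are named only.

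Gjb6, which encodes the gap junction protein connexin 30 of astrocytes, ran from 403.0 over 451 to 581.4 on day 5 and from 279.6 over 347.1 to 465.7 later, and all 10 day 5 arrays lay above the later median. Its difference was -0.36 ± 0.10 (adjusted p = 0.409), and -0.35 without replicate 4. By chip lot it was -0.04, -0.53 and -0.53. It was -0.19 ± 0.09 in unimpaired and -0.40 ± 0.10 in young rats, and 5T-AI exceeded untrained aged rats by 0.57 ± 0.09 (adjusted p = 0.000151). Gjb6 belongs to the list of genes that answer to glucocorticoids, of whose 21 tested members 10 were positive and 11 negative in impaired rats (median -0.01), none of them passing. Without replicate 4 the count was 12 positive and 9 negative (median 0.06). The list was at -0.19 in unimpaired rats, with 3 of 21 positive, and at -0.05 in young rats, with 9 of 21 positive. Tsc22d3 (GILZ), a mediator of glucocorticoid action, gave -0.23 ± 0.10, and Fkbp5, a brake on the glucocorticoid receptor, -0.11 ± 0.09, against -0.28 ± 0.09 in unimpaired and -0.29 ± 0.09 in young rats. Sgk1, a kinase induced by the hormone, gave 0.07 ± 0.17. Nfkbia, the inhibitor of NF-kappaB, gave 0.16 ± 0.20 in impaired and -0.60 ± 0.20 in unimpaired rats, and the difference between them was 0.76 ± 0.28 (limma, adjusted p = 0.999).

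The remaining 4 of the 10 genes serve signalling and protein handling. Nherf1, a scaffold that ties membrane transporters to the cytoskeleton, ran from 705.9 over 769 to 867.8 on day 5 and from 556.6 over 640.1 to 738.9 later, with 8 of 9 later arrays below the lowest day 5 array. The difference was -0.25 ± 0.06 (adjusted p = 0.171). Unc5b, a receptor for the guidance cue netrin, ran from 185.8 over 221 to 265.6 and later from 231.0 over 274.8 to 334.8, with 7 of 9 later arrays above the highest day 5 array and a difference of 0.33 ± 0.08 (adjusted p = 0.174). Npepps, a cytosolic aminopeptidase, gave 0.24 ± 0.06 (adjusted p = 0.436). Ywhaz, a 14-3-3 adaptor protein, gave 0.15 ± 0.04 (adjusted p = 0.577), and its second probe set 0.12 ± 0.06. All 4 kept their sign without replicate 4, at -0.24, 0.36, 0.22 and 0.11. Each of the 10 genes had 1 sign in all 3 chip lots (26.4% of all tested probe sets); since the genes were chosen for their p in these arrays, nothing is read from their signs by lot or scan day.

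The test of whether the change differed between impaired and young rats called 0 of 10371 probe sets (limma, smallest adjusted p = 0.977), with 414 at an unadjusted p under 0.05 (3.99%). The smallest p belonged to a probe set of Homer1, a scaffold of the postsynaptic density. It gave -0.26 ± 0.12 in impaired rats (medians of 874 and 654.3), -0.35 ± 0.12 in unimpaired rats and a fall of -0.88 ± 0.12 in young rats, where the median went from 1187 to 698.4. The difference between impaired and young rats was 0.63 ± 0.17 (unadjusted p = 0.000371, adjusted p = 0.977). The other 4 tested probe sets of Homer1 gave from -0.00052 to 0.41 in impaired rats. Cxcl12, a chemokine, gave 0.40 ± 0.18 in impaired and -0.55 ± 0.18 in young rats from 1 probe set, and -0.02 ± 0.08 and -0.06 ± 0.23 in impaired rats from the others. Hspb1, a small heat shock protein, gave -0.03 ± 0.24 with replicate 4 (923.5 against at most 294.1 in the other 18 arrays) and 0.20 without it, and fell by 1.18 on the log2 scale in young rats (adjusted p = 0.00927). Unc5b (0.33 against -0.05 in young rats) and Wdr6, a WD repeat protein (-0.10 ± 0.08 against 0.30 ± 0.08), completed the 5 genes.

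The 10 probe sets that passed over the same interval in young rats, from 9 genes, allow a look at the impaired rats in arrays that did not choose them. All 10 had the same sign in impaired as in young rats and a smaller size. Without 5T-AI replicate 4 it was 9 of 10, since Hspb1 turned to 0.20. At an unadjusted p under 0.05 in impaired rats stood 5 of them (4.89% of all probe sets), and 4 without that array (4.88% of all probe sets), and none passed. Ntng1 (netrin G1, a synaptic adhesion molecule) gave 0.26 ± 0.08 in impaired against 0.46 ± 0.08 in young rats. Sult1a1, a sulfotransferase, gave -0.24 ± 0.11 (-0.14 without the array) against -0.66 ± 0.11. Gpd1, glycerol-3-phosphate dehydrogenase, gave -0.45 ± 0.16 (-0.30 without the array) against -0.86 ± 0.16 from 1 probe set and -0.22 ± 0.42 against -1.91 ± 0.42 from the other. Cryab, another small heat shock protein, gave -0.09 ± 0.09 (-0.05 without the array) against -0.42 ± 0.09. The difference between impaired and young rats passed for none of the 10, and their choice by the young values favours a larger size there.

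For the other gene lists no member passed, and the values describe the median difference of each list. Over the 34 lists the medians ran from -0.15 to 0.17. Microglia and macrophage markers were at -0.11, with 3 of 22 positive, and without replicate 4 at 0.09, with 19 of 22 positive. Complement genes were at -0.15 with 0 of 7 positive and at 0.01 with 4 of 7 positive, lysosome genes at -0.06 (9 of 33 positive) and 0.05 (22 of 33), and genes of collagen, matrix and meninges at -0.12 (6 of 21) and 0.05 (15 of 21). These 4 medians were negative with the 1 array and positive without it. Complement C3 gave -0.09 ± 0.12 with it, where it stood at 1778 against 528.5 to 909.7 in 21PT-AI, and 0.05 without it. Cd74, the invariant chain of antigen presentation, gave 0.08 ± 0.18 and 0.21.

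Lists of neuronal genes were shifted the other way by the same array. Potassium channels were at 0.07 with 23 of 28 positive, and without replicate 4 at 0.00 with 14 of 28 positive. Synaptic vesicle genes were at 0.06 (27 of 34) and -0.01 (16 of 34), and genes of calcium channels and handling at 0.05 (26 of 34) and 0.00 (17 of 34). Camk4, a calcium-activated kinase that phosphorylates the factor bound to cyclic AMP response elements, gave 0.74 ± 0.34 with the array, where its signal lay below the 68.5 to 394.8 of the other 18, and 0.51 without it (neither passing). Interneuron markers went from 0.03 to -0.04.

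Leaving out replicate 4 moved the median of 14 of the 34 lists by more than 0.05. Myelin and oligodendrocyte genes were at 0.06 (17 of 26 positive) and at 0.09 without the array (22 of 26), against -0.05 in unimpaired rats (6 of 26) and -0.01 in young rats (12 of 26). Mbp, a main protein of myelin, ran from 9858 over 11505 to 12874 on day 5 and from 11521 over 12707 to 15736 later, a difference of 0.17 ± 0.07 (adjusted p = 0.981), and Mobp gave 0.11 ± 0.07 from its brightest probe set. Glycolysis genes were at 0.04 with and without the array (20 and 16 of 23 positive). Cholesterol synthesis genes were at 0.07 (21 of 24 positive) and at 0.03 without it (15 of 24). They were at 0.07 in unimpaired and 0.10 in young rats. Insig1, which holds back the activation of this pathway, gave 0.23 ± 0.06 (limma, adjusted p = 0.586). That value includes replicate 4, where Insig1 stood at 543.0 against 764.4 to 1018 in the other 18 arrays. Endothelial and vessel markers were at 0.07 (12 of 18 positive) and 0.09 without the array, against -0.16 in young rats with 0 of 18 positive. Slc2a1, the glucose transporter of vessel walls, gave 0.00 ± 0.08, Gfap 0.09 ± 0.06, and Ttr, a gene of the choroid plexus, -0.05 ± 0.27, its signal running from 132.3 to 690.8 over the 19 arrays.

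**Figure D5:**
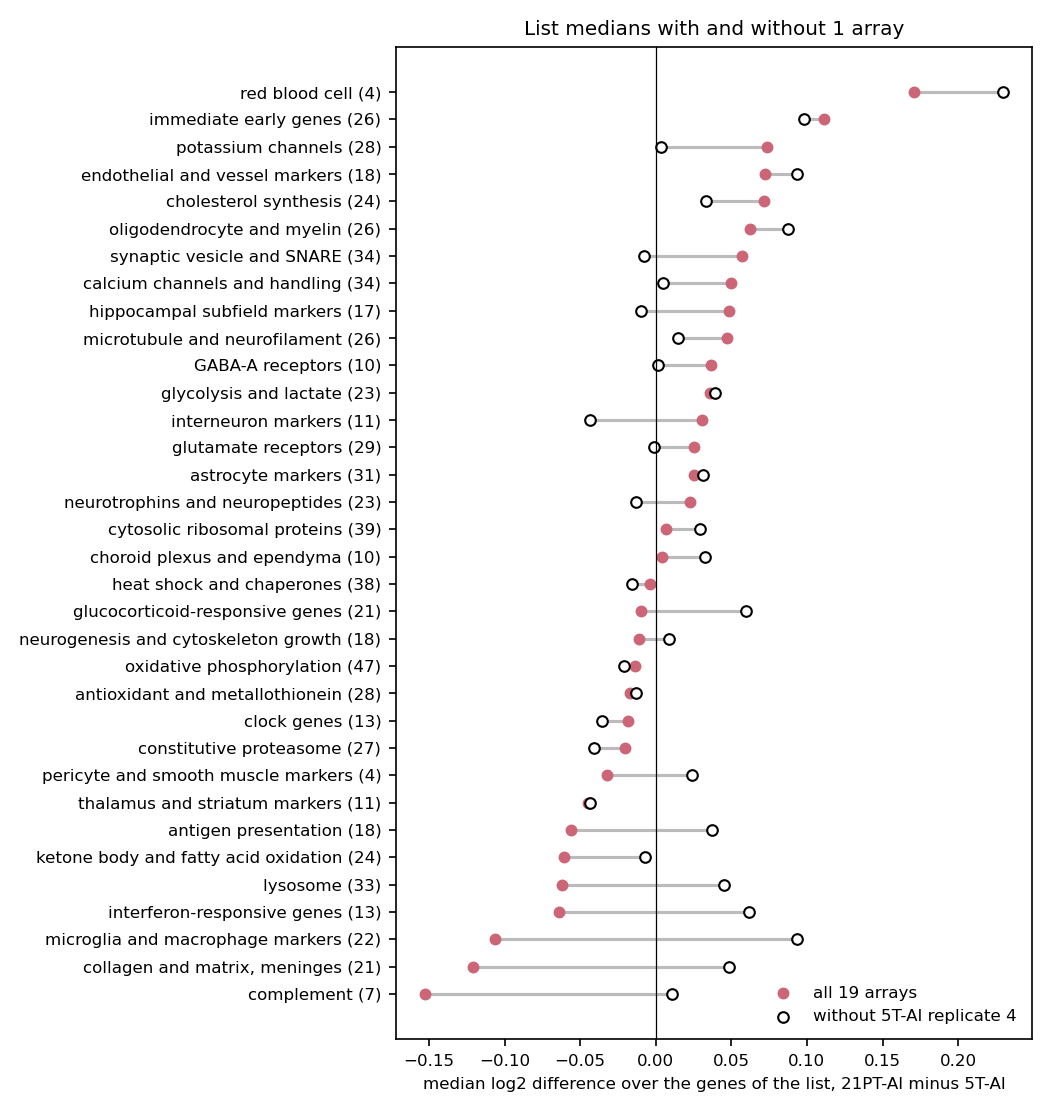
Median log2 difference, 21PT-AI minus 5T-AI, over the tested genes of each of 34 lists, with the number of genes in parentheses, from all 19 arrays (filled) and without 5T-AI replicate 4 (open). The medians of microglia and macrophage markers (-0.11 and 0.09) and of complement genes (-0.15 and 0.01) lie on opposite sides of 0, while that of immediate early genes stays at 0.11 and 0.10.

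No maze measure differed between the 2 groups beyond the spread of the animals. Over training days 3 to 5 the latency to the platform was 54.9 ± 14.2 s (SD, n = 9) in 21PT-AI and 50.1 ± 8.05 s (SD, n = 10) in 5T-AI (2-sided exact permutation p = 0.376, adjusted p = 0.862 over 8 measures). The path was 1230 ± 271 cm against 1146 ± 186 cm, and time in the goal quadrant of the probe trial 28.7 ± 11.1% against 25.9 ± 10.2%. All 8 measures had an adjusted p of 0.862. Of the array measures, the median signal was 247.2 ± 4.89 against 246.3 ± 8.88 units, and the log2 of the 3' over 5' signal of the Gapdh control was 0.30 ± 0.11 against 0.33 ± 0.12 (exact permutation adjusted p = 0.814 for both).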

How the data were processed

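The members and gene lists were chosen with earlier results of these data known. Total RNA of 78 rats was hybridised to 1 array each. The deposited values are linear signal intensity; the submitters' processing notes name MAS5 and GCOS 1.1 for the step from scan to signal. The trimmed mean lay between 500.08 and 500.10 in every array, and no further normalization was applied. Maze measures, among them the percent of probe trial time in the goal quadrant, came from the animal table deposited by the authors, and chip lot, fluidics module and scan day from the deposited array records. No reference build enters these values.

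Of 15923 probe sets 57 controls were left out; 12783 had 1 symbol, 312 several and 2771 none in the platform annotation, and only those with 1 symbol were named. Probe sets above the 40th percentile of their own array in at least 9 arrays were tested (10371, of which 8695 had 1 symbol, from 7489 genes). Log2(signal + 1) of all 78 arrays was fitted as 8 group means with limma 3.58.1 in R 4.3.3 (eBayes with trend), with Benjamini-Hochberg adjusted p under 0.05 as threshold; ± is the standard error of the fit unless SD is named. P-values measure the spread between animals; precision is limited by how many arrays there are. The fit was tested on simulated data.

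Named were the 10 genes with the smallest p, the 5 with the smallest p in each difference of changes and a fixed set of genes, of which Hmgcs1 had no tested probe set with 1 symbol; 1 other item is not reported here. Other genes were named after their values were seen. Lists took the brightest probe set of a gene and got no set test. Maze and array measures were tested by exact permutation (scipy 1.17.1). Promoters are from RefSeq's GRCr8 table. Alternatives were another normalization (quantile), a pseudocount of 32, no filter, only the arrays of the contrast, array weights, replicate, scan day and chip lot as blocks, module, Gapdh or actin ratio as terms, and leaving out each of the 19 arrays.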

Additional observations from a re-analysis of the deposited data

Results flagged for a closer look

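Within each group of 9 or 10 arrays, the highest or lowest value was compared with its neighbour for the named genes, the maze measures and the array measures. In 21 of 90 cases the gap was above the critical value of Dixon's test, where chance gives about 1 in 20, and 13 of the 21 were 5T-AI replicate 4. That array was lowest in its group for Adcy8 (signal 40.4), Arc (331.3) and Bdnf (99.0). It was highest for Gramd2b (1572), Slco2b1 (349.6), Hspb1 (923.5), Fos (250.7), Fkbp5 (701.8), Gfap (8455), Slc2a1 (1374) and C3 (1778). Its median signal was the highest of the group (269.05) and its mean correlation with the other arrays the lowest (0.937).

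In other arrays of day 5, replicate 9 was high for Gjb6 (581.4), replicate 5 low for Mobp (5722.5), and the animal of replicate 10 swam the longest probe trial path (902.3 cm). Among arrays of 21 days after training, replicate 5 was high for Nr4a1 (1005) and Cd74 (2257), replicate 9 high for Bdnf (524.0), replicate 8 high for Mbp (15736) and replicate 4 low for Mobp (5695). No cause of these values was tested.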

How the results depend on the processing

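The count of 1 passing probe set in impaired rats depended on the processing. It was 0 with quantile normalization, with only the arrays of the contrast, without 5T-AI replicate 4, with array weights, with blocks of scan day and with a term for fluidics module, and 2 with chip lot as a block and with the actin ratio as a covariate (Gramd2b joining Adcy8). It stayed at 1 with a pseudocount of 32, without the filter, with the Gapdh ratio and with the replicate block. Leaving out each of the 19 arrays gave 0 to 3: 3 without 5T-AI replicate 2 (Gramd2b, Arc and Adcy8), 2 without 21PT-AI replicate 3 or 5, and 0 without 5T-AI replicate 3, 4, 8 or 9 or 21PT-AI replicate 2, 4, 6, 7, 8 or 9. Without 5T-AI replicate 6 Gramd2b passed (adjusted p = 0.0190) and Adcy8 did not (0.0709). The adjusted p of Adcy8 ran from 0.00552 to 1.00, and its difference was positive in every alternative. Both differences of changes stayed at 0 under each of the 12 alternatives, with 186 to 570 probe sets at an unadjusted p under 0.05 for unimpaired rats and 194 to 660 for young rats.

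Of the named genes 7 changed sign, all with differences under 0.1 in size. Array weights gave 0.12 for Hspb1 and 0.0394 for C3. Slc2a1 became -0.00774 with the replicate block, -0.0170 with scan day and -0.0419 with module. Bdnf became 0.0448 with scan day, 0.00600 with chip lot and 0.0210 with the actin ratio. With module Sgk1 became -0.0674 and Cd74 -0.10. Leaving out 1 array moved Bdnf from -0.21 to 0.0591, C3 from -0.15 to 0.04999, Cd74 from -0.0710 to 0.21, Hspb1 from -0.12 to 0.20, Sgk1 from -0.00621 to 0.14, Slc2a1 from -0.0365 to 0.0536 and Ttr from -0.24 to 0.0830. Without the animal of replicate 4 the difference in mean distance to the goal became 0.0211 cm (exact permutation adjusted p = 0.993), and no maze measure passed. The cause of these changes was not tested. Deviations of same-numbered arrays of the 2 groups from their group means correlated at -0.14 to 0.23. Such correlations cannot settle whether the numbers mark a pairing of animals, and the main fit used none. Few arrays and dim probe sets limit what can be detected.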
